A study of Rattus norvegicus with 2 samples.

Results

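Solute carriers are membrane proteins that move ions, sugars, metabolites and vitamins across a lipid bilayer, and their genes carry symbols made of Slc, a family number, a letter and a member number. The members described here are the rat genes whose symbol has that form, without the families Slc1, Slc3, Slc6, Slc7, Slc25, Slc30, Slc36, Slc38, Slc39 and Slc43 (most of them carriers of amino acids, zinc or mitochondrial metabolites) and without Slc18a2. The rule took 146 of 15409 gene symbols, spread over 34 families and 177 listed transcripts, and used no measured value. The name plasma membrane carriers holds for most of them but not for all. Of the members 36 belong to carriers known mainly from the Golgi, endoplasmic reticulum, lysosomes, vesicles or mitochondria. They were taken by family (Slc17, Slc18a1, Slc33, Slc35, Slc37 and Slc48) or by symbol (Slc8b1, Slc15a3 and Slc15a4). Another 3 that match the symbol are not carriers: the scaffold proteins Slc9a3r1 and Slc9a3r2 (NHERF1 and NHERF2) and Slc4a1ap (kanadaptin).

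RNA was sequenced from RBL-2H3, a basophilic leukaemia cell line of the rat that serves as a model of mast cells, in 1 library of cells given PM2.5 (fine particulate matter) plus IgE and DNP-HSA and in 1 library of cells given normal saline. DNP-HSA is an antigen that, bound by IgE on the cell surface, clusters the receptor for IgE. The labels give neither a dose unit nor a time, and do not say whether the saline cells received IgE and antigen. With 1 library a group no difference has a replicate check, no p-value between conditions was computed, and effects of the particles cannot be told apart from those of IgE and antigen. Reads under the listed transcripts, recovered from the deposited values, came to 3964955 in the library of treated cells and 7279671 in the saline library. By that count the saline library was 1.84 times as deep. Of 12 mast cell and basophil markers 10 were listed, with a median log2 fold of 0.14; the protease Cpa3 was at least 2-fold higher (1.74, 1.47 to 2.02), the histamine-forming enzyme Hdc at least 2-fold lower (-1.07, -1.19 to -0.95), and the other 8 were within 2-fold, among them Kit (-0.21), Fcer1a (0.44) and Ms4a2 (0.79). None of 4 lymphocyte markers was listed, 3 of 4 fibroblast markers summed to 28.1 against 16.5 normalised counts, 1 of 4 epithelial markers (Krt8) had 19.8 against 9.54, and 4 of 5 macrophage markers summed to 704 against 1471, mostly Csf1r. The part of these markers in the results was not tested.

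Carriers of the plasma membrane set what a cell can take up and what it must expel. Glucose enters through the Slc2 family, lactate and other monocarboxylates leave through Slc16, internal pH is held by sodium-proton exchangers (Slc9) and bicarbonate or anion exchangers (Slc4, Slc26), and cell volume and chloride by the cation-chloride cotransporters (Slc12). Carriers of the Slc35 family bring nucleotide sugars into the Golgi and endoplasmic reticulum, where glycans are built. In mast cells, IgE receptor crosslinking is followed by ion fluxes, exocytosis and a raised use of glucose.

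The deposited values are on a log2 scale with 1 added, and the normalised count is the value before both, that is, reads scaled by a factor for the library. Counts of the transcripts of a gene were summed, and log2 folds are of treated over saline cells on the normalised count plus 1. They are not corrected for transcript length, so levels are compared between libraries and not between genes. Brackets hold exact 95% intervals of the log2 ratio from the reads; they cover counting error only. A gene is said to be higher or lower by the size rule where its log2 fold was at least 1 either way and its mean over both libraries at least 10 normalised counts; genes with such a mean are called measured.

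Lower values predominated among the solute carriers. Of the 146 members, 108 had a mean of at least 10; of these 5 were at least 2-fold higher in treated cells and 29 at least 2-fold lower, which is 4.63% and 26.9%. Over all 11575 symbols with such a mean, 8.33% were higher and 10.4% lower. The median log2 fold of the 108 was -0.47, against -0.047 over all 11575. Of the 108 members 80 lay below 0, and of all 11575 symbols 6074 did. Set against counting error, the whole interval lay below 0 in 55 members, above 0 in 11 and held 0 in 42. Intervals were not counted over all symbols, so these 3 counts have no share to stand beside. Among the 29 lower members the whole interval lay below -1 in 13, and 14 of the 29 had under 20 reads in the treated library. With a mean of at least 50 required, 17 of 79 members were lower (21.5%, against 7.4% of all symbols) and 2 were higher (2.53%, against 6.85%). The edge of the rule is crowded: 3 members lay between -1.1 and -1, and 7 between -1 and -0.9, among them the phosphate carrier Slc20a1 (-0.97), the potassium-chloride cotransporter Slc12a4 (-0.98) and the dicarboxylate carrier Slc13a3 (-0.98).

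**Figure D1:**
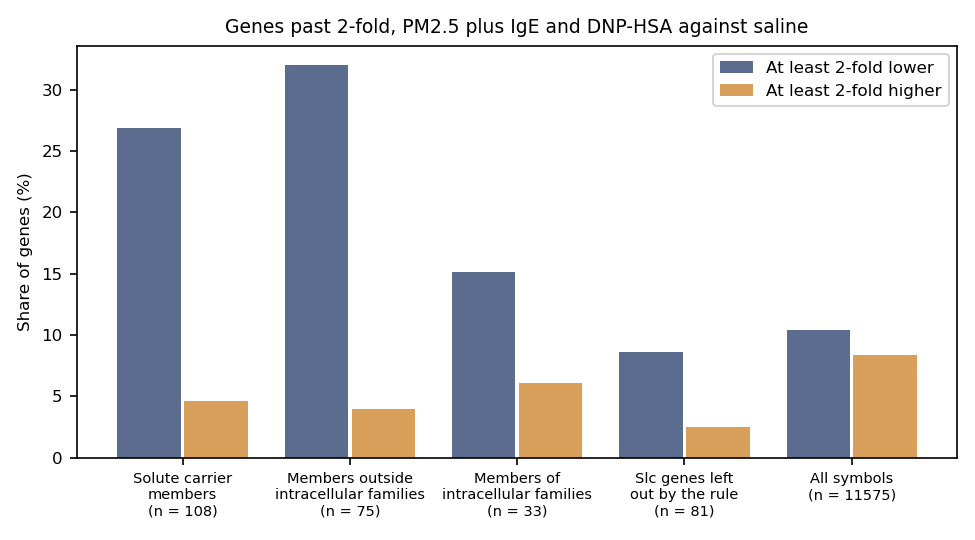
Share of genes (y axis, percent) at least 2-fold lower (blue) or higher (orange) in cells given PM2.5 plus IgE and DNP-HSA than in saline cells, among measured genes. The lower share is 26.9% in the 108 members, 32% in the 75 members of families not counted as intracellular and 10.4% over all symbols.

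The members were split by family number, with Slc8b1, Slc15a3 and Slc15a4 assigned by symbol. Outside the families counted as intracellular lay 75 members, of which 24 were lower and 3 higher, with a median of -0.56. Of 33 members of intracellular families 5 were lower and 2 higher, with a median of -0.30. The 81 Slc genes that the rule left out and that had a mean of at least 10 had 7 lower and 2 higher genes and a median of -0.35. The split by family does not separate plasma membrane carriers from intracellular ones, since the 75 still hold single genes known from inside the cell, such as Slc2a6, Slc2a8, Slc9a8, Slc11a1, Slc24a5 and Slc29a3. Of these Slc2a6 and Slc9a8 were among the lower genes, and Slc24a5 and Slc29a3 among the higher ones. With 1 library a group, no test of these differences was made.

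The 38 members with a mean under 10 are described by their reads only. Of these, 10 had reads in the treated library alone, 23 in the saline library alone and 5 in both; none had more than 8 reads in treated or 15 in saline cells. The same split was not counted over all symbols with such a mean, so these counts have no share to stand beside. The part of the deeper saline library in this imbalance was not tested. Among the 38 were the nucleoside carrier Slc29a1 (0 against 11 reads) and the sodium-proton exchangers Slc9a3 (0 against 11 reads) and Slc9a2 (8 against 0 reads). These were chosen after their values were seen.

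**Figure D2:**
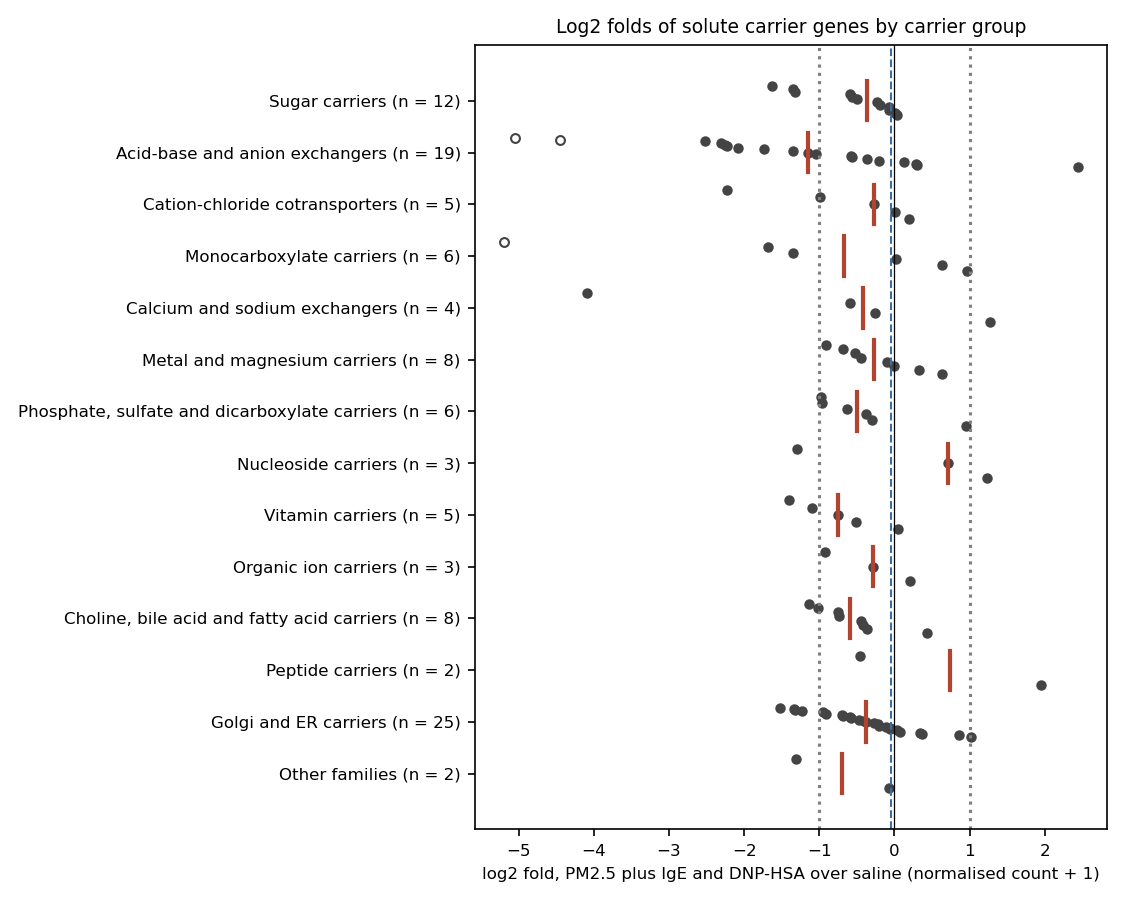
Log2 folds of PM2.5 plus IgE and DNP-HSA over saline (x axis) for the 108 members with a mean of at least 10, by carrier group (y axis, n in brackets); open circles are the 3 members with 0 reads in treated cells, placed by the added 1. Red bars are group medians, dotted lines mark 2-fold, and the dashed blue line is the median of all symbols at -0.047; the acid-base and anion exchangers have their median at -1.16.

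By family number, the acid, bicarbonate and anion exchangers were the group with the most lower genes, 11 of 19, with 1 higher gene and a median of -1.16. These counts include the 3 members that are not carriers, of which the scaffolds Slc9a3r1 and Slc9a3r2 were lower. Without them 9 of 16 exchangers were lower and 1 was higher, with a median of -1.26. Slc4a2 (ENSRNOG00000014347), the chloride-bicarbonate exchanger AE2, which brings chloride in and lets bicarbonate out, had a normalised count of 239 in treated and 1191 in saline cells, from 145 and 1373 reads. Its log2 fold was -2.31 (-2.57 to -2.07). It is the single member among the 57 transcripts in the authors' deposited table of selected transcripts, where the p-value is 0.0386 and the adjusted p-value 0.92; the authors' fold there runs the other way, saline over treated, at 2.31. In the authors' deposited table of all 20367 transcripts no adjusted p-value was under 0.05, and 65 p-values were. Of those 65, 1 belonged to the 177 transcripts of members. Slc4a7 (ENSRNOG00000005957), the sodium-bicarbonate cotransporter NBCn1, which loads bicarbonate, went the other way by a small margin, with 2116 in treated and 1723 in saline cells (0.30, 0.19 to 0.40). So the bicarbonate extruder and the bicarbonate loader with most reads did not share a direction. Slc4a11, a proton-conducting relative, was lower at -1.35 (-2.002 to -0.79), and Slc4a8, a sodium-driven chloride-bicarbonate exchanger, had 4 against 49 reads (-2.52, -4.62 to -1.24). The non-carrier Slc4a1ap was at 0.12.

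Among the sodium-proton exchangers, Slc9a8 (NHE8), known from the Golgi, was lower at -1.74 (-2.50 to -1.096), from 21 and 136 reads. The scaffold Slc9a3r1, which tethers transporters to ezrin, had 350.1 in treated and 722 in saline cells (-1.04, -1.27 to -0.82), just past the rule. Its relative Slc9a3r2 had 0 reads in treated and 37 in saline cells, which is at least 6.48-fold lower when the treated library is set to a floor of 3 reads. The Slc9b pair stood on few reads: Slc9b2, a sodium-proton antiporter, had 17 against 5 reads and was the highest of the 108 measured members at 2.45 (1.20 to 4.49), while Slc9b1 had 0 against 24, at least 4.2-fold lower. Slc9b1 and Slc9b2 are neighbours in the RefSeq gene order and had opposite directions. In the Slc26 anion exchangers 4 of 5 measured genes were lower, all of them with 31 or fewer reads in treated cells: Slc26a11 (-2.26, -3.72 to -1.23), Slc26a8 (-2.22, from 2 and 22 reads, -5.66 to -0.51), the sulfate carrier Slc26a1 (-2.08, -3.70 to -0.97) and the chloride-oxalate-bicarbonate exchanger Slc26a6 (-1.16, -1.79 to -0.60). The sulfate carrier Slc26a2 had 11 against 17 reads and was at 0.28.

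Sugar carriers were mostly within 2-fold. Slc2a3 (ENSRNOG00000008376), the high-affinity glucose carrier GLUT3, had 7669 in treated and 11590.1 in saline cells, from 4643 and 13363 reads (-0.60, -0.64 to -0.55). Slc2a1 (ENSRNOG00000007284), the basal glucose carrier GLUT1, had 2857 and 3262 (-0.19, -0.27 to -0.11). For these deeply read genes counting error is small, and the spread between cultures is what remains unknown. Slc2a6, the lysosomal hexose carrier GLUT6, was lower, with 268 in treated and 684 in saline cells (-1.35, -1.61 to -1.11), and Slc2a8 (GLUT8), also mainly intracellular, was at -0.50. The insulin-responsive Slc2a4 (GLUT4) was at 0.03 (-0.59 to 0.64) and the urate carrier Slc2a9 at 0.0032. Over Slc2 as a family, 1 of 8 measured genes was lower, none was higher and the median was -0.13. In the other sugar families, Slc45a4 was lower at -1.32 (-1.60 to -1.07) and Slc45a3 at -0.56 (-0.77 to -0.37). Slc5a6, by number in a sugar family but a carrier of biotin and pantothenate, was lower at -1.63 (-2.53 to -0.90).

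Monocarboxylate carriers separated by gene. Slc16a3 (ENSRNOG00000036677), the lactate exporter MCT4 of glycolytic cells, had 268 in treated and 858 in saline cells, from 162 and 989 reads (-1.68, -1.93 to -1.44). Slc16a1 (MCT1), which carries lactate either way, had 631 and 620.1 (0.02, -0.16 to 0.21). Slc16a6 was lower at -1.36 (-2.11 to -0.71), and Slc16a13, with 0 against 41 reads, at least 7.18-fold lower. Its neighbour in the RefSeq gene order, Slc16a11, had 0 against 5 reads. Slc16a14 (0.96, -0.002 to 2.02) and the creatine carrier Slc16a12 (0.64, -0.19 to 1.49) had few reads and intervals that held 0. In all, 3 of 6 measured Slc16 genes were lower and none higher.

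Of 5 measured cation-chloride cotransporters 1 was lower and 0 were higher, with a median of -0.28. Slc12a7 (KCC4), a potassium-chloride exporter, had 448 in treated and 543 in saline cells (-0.28, -0.49 to -0.07). Slc12a2 (NKCC1), which brings chloride in with sodium and potassium, was at 0.20 (-0.0048 to 0.40). Slc12a4 (KCC1) was at -0.98 (-1.29 to -0.69), and Slc12a9 was lower at -2.23 (-4.05 to -1.04) on 5 against 49 reads.

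**Figure D3:**
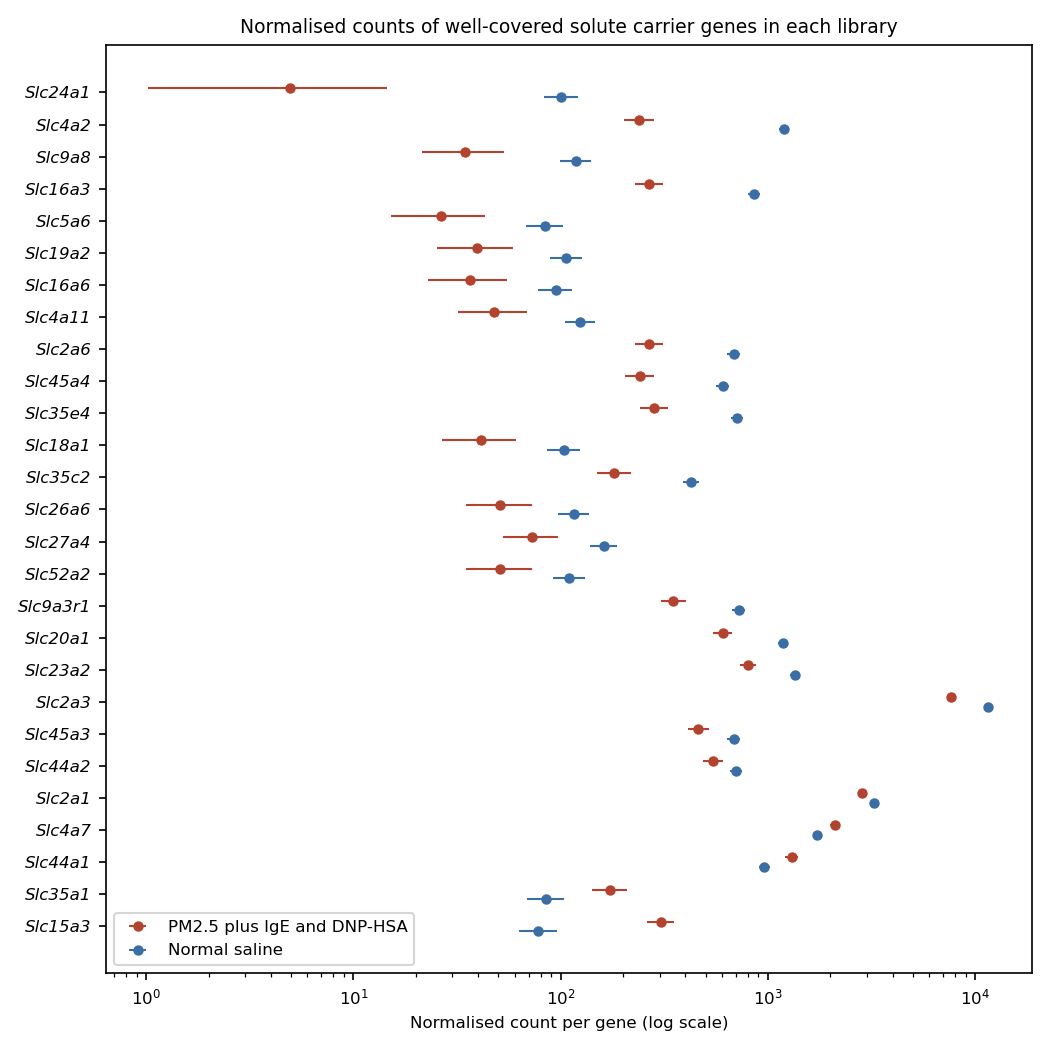
Normalised counts (x axis, log scale) of the members past 2-fold with at least 100 reads in all and of those among the 12 highest means whose interval of the log2 ratio does not hold 0, in cells given PM2.5 plus IgE and DNP-HSA (red) and in saline cells (blue), ordered by log2 fold. Bars are exact 95% Poisson intervals of the counts; Slc24a1 and Slc4a2 lie at the low end of the folds at -4.09 and -2.31, and Slc15a3 at the high end at 1.95.

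Higher genes were few, and 3 of the 5 had under 31 reads in each library. Slc15a3 (ENSRNOG00000021644), a peptide and histidine carrier of endosomes and lysosomes, had 304 in treated and 78.1 in saline cells, from 184 and 90 reads (1.95, 1.59 to 2.34). Its relative Slc15a4 was at -0.46 (-0.73 to -0.19). Slc35a1, which carries CMP-sialic acid into the Golgi, was at 1.02 (0.62 to 1.44), from 105 and 98 reads, and did not pass with equal library totals (0.97) or a pseudocount of 5 (0.99). The other higher genes were the melanosomal calcium exchanger Slc24a5 (1.27, 0.48 to 2.16), the lysosomal nucleoside carrier Slc29a3 (1.23, 0.33 to 2.26) and Slc9b2. Within the calcium exchangers Slc24a1, known from rod photoreceptors, was the opposite, with 3 against 116 reads (-4.09, -6.64 to -2.76), and Slc24a3 was at -0.59. Among nucleoside carriers Slc29a4 was at 0.72 (-0.05 to 1.51) and Slc29a2 had 5 against 25 reads (-1.29, -3.13 to 0.02).

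Metal carriers held no gene past 2-fold among 8 measured. The copper importer Slc31a1 (CTR1) was at 0.63 (0.32 to 0.94), with 261 in treated and 168 in saline cells, and Slc31a2 was at -0.91. The iron importer Slc11a2 (DMT1) was at 0.00014, the iron exporter Slc40a1 (ferroportin) at -0.10 and the phagosomal metal carrier Slc11a1 at 0.32, and their intervals held 0. The sum for Slc11a2 joins transcripts of opposite direction. ENSRNOT00000026531 had 187 in treated and 77.2 in saline cells, and ENSRNOT00000081327 had 54.5 and 163. The magnesium carriers Slc41a1, Slc41a2 and Slc41a3 were at -0.45, -0.52 and -0.68, each with its whole interval below 0. The group of phosphate, sulfate and dicarboxylate carriers likewise held none past 2-fold among 6; Slc20a1 (PiT1), the phosphate importer, had 604.5 in treated and 1183 in saline cells (-0.97, -1.14 to -0.80), and passed with equal library totals (-1.02). The vesicular glutamate carrier Slc17a6 was at 0.96 (0.09 to 1.91) on 23 against 22 reads, and the lysosomal sialic acid exporter Slc17a5 was at -0.63.

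Among vitamin carriers 2 of 5 measured genes were lower. Slc23a2, the ascorbate importer SVCT2, had 801 in treated and 1350.4 in saline cells (-0.75, -0.90 to -0.61). The thiamine carrier Slc19a2 was lower at -1.41 (-2.12 to -0.79) and the riboflavin carrier Slc52a2 at -1.09 (-1.72 to -0.53), while the folate carrier Slc19a1 was at 0.05. That sum joins ENSRNOT00000065236, with 112 in treated and 58.1 in saline cells, and ENSRNOT00000044212, with 0 and 50.3. Of the choline, bile acid and fatty acid carriers, Slc44a1, a choline carrier, was at 0.44 (0.30 to 0.57) and its relative Slc44a2 at -0.37 (-0.56 to -0.18). The fatty acid carriers Slc27a1 and Slc27a4 were at -0.74 (-0.95 to -0.53) and -1.14 (-1.66 to -0.67), and the bile acid carrier Slc10a1 had 8 against 32 reads. All 3 measured organic ion carriers of family Slc22 were within 2-fold, with the carnitine importer Slc22a5 at -0.28. Slc18a1, a vesicular monoamine carrier, was lower at -1.31 (-2.02 to -0.70), and the lysosomal heme carrier Slc48a1 was at -0.08.

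The Slc35 family was the largest, with 20 measured members, of which 3 were lower and 1 higher; the median was -0.33. Slc35b1, which exchanges ATP and ADP across the endoplasmic reticulum membrane, had 624 in treated and 495 in saline cells (0.33, 0.14 to 0.52). Slc35a3, a carrier of UDP-N-acetylglucosamine, was at 0.86 (0.61 to 1.12), and the UDP-galactose carrier Slc35a2 at -0.95 (-1.33 to -0.59), so that Slc35a1 and Slc35a3 lay on the other side of 0 from Slc35a2. Lower genes were Slc35d2 (-1.52, -2.89 to -0.50), Slc35e4, which had 282 in treated and 709 in saline cells (-1.32, -1.57 to -1.09), and Slc35c2 (-1.23, -1.55 to -0.93). The GDP-fucose carrier Slc35c1 was at -0.40 and Slc35b4 at -0.38 (-0.63 to -0.14). The glucose-6-phosphate carrier of the endoplasmic reticulum, Slc37a4, was at 0.08, its relative Slc37a1 was lower at -1.34 on 10 against 50 reads, and the acetyl-CoA carrier Slc33a1 was at -0.06.

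For 25 members several transcripts were listed, and in 22 of these the gene had at least 20 reads in each library. In 14 of the 22 the largest difference in a transcript's share of the reads was under 10 percentage points; Slc2a3, for example, had 88% of its reads under 1 transcript in treated and 87.5% in saline cells. In 4 it was over 50 points. Such shares were not computed for genes outside the members, so these counts cannot be called particular to the carriers. All 162 reads of Slc16a3 in treated cells were listed under ENSRNOT00000054939 (100%, exact 95% interval 97.7% to 100%), and all 989 in saline cells under ENSRNOT00000086096 (interval 99.6% to 100%). Slc2a9 had the same pattern, with 50 reads under ENSRNOT00000085275 in treated and 95 under ENSRNOT00000042200 in saline cells. In Slc37a2, ENSRNOT00000089662 took 99% of the reads in treated and 20.6% in saline cells, and in Slc16a6, ENSRNOT00000088215 took 95.5% and 16.5%. The summed log2 folds of Slc16a3 and Slc2a9 therefore join reads of different transcripts in the libraries. With the highest transcript alone the log2 fold was -9.75 for Slc16a3 and -6.24 for Slc16a6, against -1.68 and -1.36 summed over transcripts. Both of those transcripts had 0 reads in treated cells, so these values rest on the added 1. The sources used here do not say how reads were divided between overlapping transcripts, and the part of that step in these shares was not tested.

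**Figure D4:**
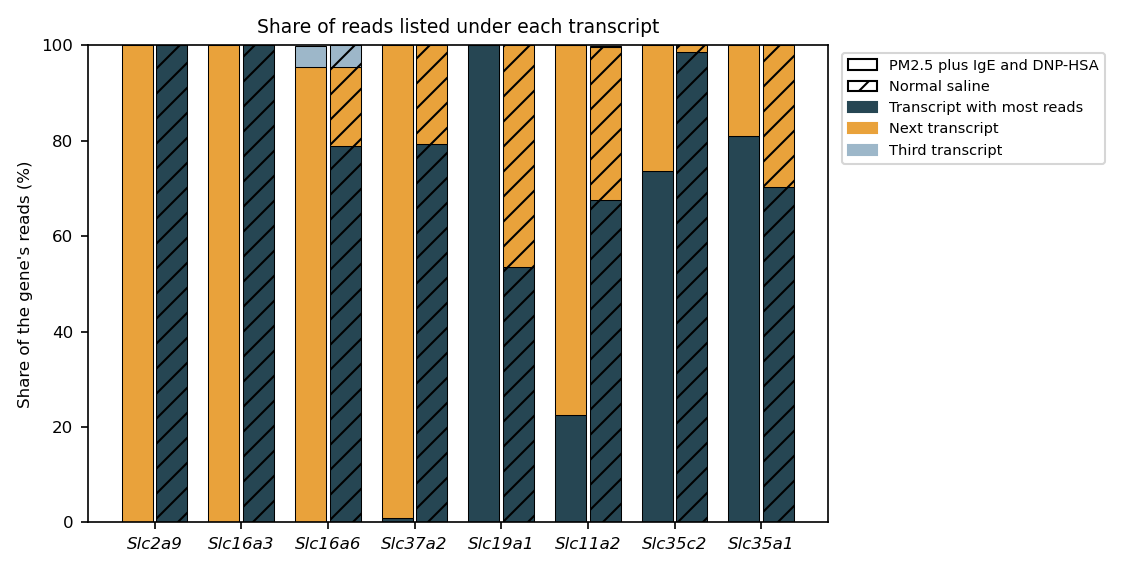
Share of a gene's reads (y axis, percent) listed under each of its transcripts. Drawn are the 8 members whose shares differ most among those with at least 20 reads in each library. Plain bars are cells given PM2.5 plus IgE and DNP-HSA, hatched bars saline cells, and colours are transcripts in order of total reads. Slc2a9 and Slc16a3 have all their reads under different transcripts in the libraries.

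Promoter sequences, 250 bases before to 50 after the start, were available from RefSeq (GRCr8) for 75 of the 108 members, 17 of the 29 lower ones and 2 of the 5 higher ones; where a gene had several starts the first was taken. Each was searched on both strands for 7 motifs. GGGCGG (the GC box) was in 58.7% of the 75, in 64.6% of the promoters of 8043 measured symbols and in 34.9% of 27457 promoters of all genes. The median GC content was 63%, 61.3% and 52.3% in the same order, so the members resembled measured genes more than all genes. ACGTG was in 32% of the 75, 26.4% of measured and 19.7% of all promoters, and CACGTG, which contains it, in 17.3%, 9.7% and 6.65%. TATAAA was in 2.67%, 6.29% and 14.3%, CCAAT in 33.3%, 38.2% and 37.7%, and TGACGTCA in 0%, 3.38% and 1.91%. TGANTCA, the AP-1 motif bound by Fos and Jun dimers, was in 3 of the 75 (4%, against 4.81% of measured and 7.33% of all promoters). Those 3, Slc16a3, Slc26a1 and Slc19a2, were all lower in treated cells, a pattern seen after the search. Of the 75 promoters 17 belonged to lower members. The share of lower genes among the 387 measured symbols with this motif was not computed, so the pattern has no share to stand beside. They are shown because they share that motif and direction, with Slc4a2, the member in the authors' selected table, whose window holds none of the 7. Capitals mark the TGANTCA match, which begins 232, 162 and 230 bases before the start in Slc16a3, Slc26a1 and Slc19a2. A match describes letters in this window and is no binding site. The reads of Slc16a3 lay under different transcripts in the libraries, and its window was not matched to either.
Slc16a3 (GRCr8 chr10:106712078-106712377, plus strand): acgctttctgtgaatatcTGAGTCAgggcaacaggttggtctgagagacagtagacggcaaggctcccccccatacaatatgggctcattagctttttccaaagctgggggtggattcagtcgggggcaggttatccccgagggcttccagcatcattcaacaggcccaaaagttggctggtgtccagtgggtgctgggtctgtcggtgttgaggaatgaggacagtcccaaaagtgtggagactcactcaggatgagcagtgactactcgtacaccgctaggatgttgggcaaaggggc
Slc26a1 (GRCr8 chr14:1184721-1185020, plus strand): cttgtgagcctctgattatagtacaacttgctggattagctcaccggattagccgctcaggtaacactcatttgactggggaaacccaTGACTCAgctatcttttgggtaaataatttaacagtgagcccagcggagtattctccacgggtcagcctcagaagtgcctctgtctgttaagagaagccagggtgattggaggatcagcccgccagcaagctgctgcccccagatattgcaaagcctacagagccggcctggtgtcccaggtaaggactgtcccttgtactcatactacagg
Slc19a2 (GRCr8 chr13:79134868-79135167, plus strand): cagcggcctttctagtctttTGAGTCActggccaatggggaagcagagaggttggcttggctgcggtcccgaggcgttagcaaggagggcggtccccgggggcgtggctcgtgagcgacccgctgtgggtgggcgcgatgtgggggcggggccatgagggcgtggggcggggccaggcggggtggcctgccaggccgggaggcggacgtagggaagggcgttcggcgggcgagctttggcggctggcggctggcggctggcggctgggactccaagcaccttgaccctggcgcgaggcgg
Slc4a2 (GRCr8 chr4:11645353-11645652, minus strand): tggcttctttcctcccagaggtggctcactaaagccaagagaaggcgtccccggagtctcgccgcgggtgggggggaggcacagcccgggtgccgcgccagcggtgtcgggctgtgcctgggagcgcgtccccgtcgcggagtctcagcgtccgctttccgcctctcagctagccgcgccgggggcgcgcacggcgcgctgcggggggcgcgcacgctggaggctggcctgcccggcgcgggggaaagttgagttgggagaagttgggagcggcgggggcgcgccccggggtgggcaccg

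Partner genes that work with these carriers were described from a list. It held 28 genes, of which 25 were listed and 24 had a mean of at least 10; of these 1 was higher (4.17%) and 2 were lower (8.33%), against 8.33% and 10.4% of all symbols, and the median log2 fold was 0.13. Txnip, an arrestin that removes glucose carriers from the surface, was higher at 1.13 (1.09 to 1.18), with 13434.5 in treated and 6122 in saline cells. Hexokinase 2 (Hk2), which traps glucose inside the cell, was lower at -1.12 (-1.36 to -0.88), and Hk1 was at -0.29. The calcium pump Atp2b4 had 0 against 36 reads, while its relative Atp2b1 was at 0.20. Bsg (basigin), the chaperone of Slc16a1 and Slc16a3, was at 0.18 (0.09 to 0.27). The sodium pump subunit Atp1b3 was at 0.14. The kinases that control the Slc12 family stayed near 0, with Wnk1 at 0.20, Oxsr1 at -0.35 and Stk39 at 0.33. Chp1, a cofactor of sodium-proton exchangers, was at 0.23, and ezrin (Ezr), which binds Slc9a3r1, at 0.28. Carbonic anhydrase 2 (Car2), which makes bicarbonate, was at 0.47.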

How the data were processed

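Per the labels' protocols, libraries were strand-specific (TruSeq kit, total RNA). The submitters' processing notes list STAR 2.5, DESeq 1.22.1, Cuffnorm and FastQC but not what each did; the genome build and annotation are not given in the sources used. Each transcript has a log2 value per library, as deposited by the authors. Taken off the log scale and less 1, 100% of them were whole multiples of 1 step in each library (within 1e-06), read as reads divided by size factors of 0.605 for treated and 1.15 for saline cells. The authors' deposited p-values are quoted as listed, and their test is not given. A further 8 columns repeat these values and were not used.

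The members, lists and rules were chosen with earlier results of these data known. Transcripts were summed per symbol. Exact 95% intervals (Clopper-Pearson) were taken for the share of a gene's reads that came from treated cells and converted to log2 ratios; since reads may be copies of one molecule, they cover counting error only. A gene at 0 reads is set against a floor of 3 reads, 4.95 normalised counts in treated cells. The depth gives a median of 55.5 treated and 125 saline reads for the 108 members. Named genes were the 12 largest folds each way, the 12 highest means and, in 6 families, the 3 highest means and the extreme folds, 46 genes in all; some genes that this takes are not reported here. Other members named were picked after their values were seen. Of the members 144 matched the RefSeq table of GRCr8 by symbol. The procedure was tested on simulated data with changes planted in genes with a mean of at least 50. The simulated counts held counting error only, so that test does not cover spread between cultures or genes with few reads. SciPy 1.17.1, pandas 2.3.3 and NumPy 2.4.6 ran under Python 3.11.15, with figures by Matplotlib 3.10.9.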

Additional observations from a re-analysis of the deposited data

How the results depend on the processing

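No paired analysis was possible because each group has 1 library. The main rule gave 5 higher and 29 lower of 108 members. A filter of at least 1 normalised count in 1 library gave 15 and 52 of 145, and no filter 15 and 52 of 146. Shares over all symbols were not computed under either setting, so these counts have none to stand beside. A mean of at least 50 gave 2 and 17 of 79. The highest transcript alone gave 8 higher, and leaving out the intracellular families gave 3 higher. The other alternatives gave counts within 1.5 times: pseudocounts of 5 and 0.5, equal library totals, the median of symbols with a mean of at least 50 set to 0, TMM factors from the recovered reads (trimmed mean of ratios), protein-coding transcripts alone, members that are not carriers left out and, chosen after seeing the data, reads in both libraries. The median of the members lay between -0.56 and -0.44 under all of these. The scalings moved all log2 folds by -0.053 (equal totals), -0.02 (TMM) and 0.028 (median set to 0). Among the 46 named genes, none past 2-fold changed sign under these alternatives; within 2-fold, Slc16a1 (-0.028) and Slc2a4 (-0.019) were below 0 with equal totals. The median of family Slc26 was -1.54 with a pseudocount of 5, against -2.08, and that of Slc16 was -2.58 with the highest transcript alone, against -0.67; that setting gave -9.75 for Slc16a3 and -6.24 for Slc16a6. Depth limits the members with few reads: 25 of the 108 had under 20 reads in the treated library.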
